A study of Mus musculus with 6 samples.

Results

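The genes described here are 34 genes whose products act in G2 and mitosis, the last phases of the cell cycle, in mouse B cells given the transcription factor Sox2. They were taken by symbol from the deposited count table of 37620 genes, and all 34 were found and passed the filter on low counts. The study cultured splenic B cells of C57Bl/6 mice aged 4 months with anti-CD40 (1 µg/ml) and IL-4 (12.5 µg/ml), stimuli that make B cells divide and switch their antibody class. Cells received the empty retroviral vector pMIR (3 libraries) or pMIR-Sox2 (3 libraries) after 24 and 48 h, and cells carrying the mCherry marker of infection were sorted at 96 h. Both groups were thus stimulated, infected and sorted, and there was no uninfected or unstimulated group. The promoter that drives Sox2 in the vector was not given in the sources used here, and no label tells whether separate mice gave the replicates.

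Gene counts ran from 17153805 to 27692437 per library. Sox2 was read at 0.334 to 1.78 CPM (counts scaled to a common library size) in the pMIR libraries and at 989, 786 and 624 CPM in pMIR-Sox2 replicates 1 to 3. All 9 B cell markers passed the filter on low counts, and their sum was 5199 to 6128 CPM in pMIR and 2975 to 3947 CPM in pMIR-Sox2. Of the other cell types, S100a8, S100a9, Hba-a1, Hbb-b1, Ncr1 and Col3a1 were at 0 in every library, and Cd3d, Cd3e, Cd3g, Cd4, Cd8a and Cd8b1 were each at 0.238 CPM or less. Cd28, the 1 of 7 T cell markers that passed the filter, was read at 4.79, 11.5 and 5.47 CPM in pMIR and at 0.827, 1.30 and 3.71 CPM in pMIR-Sox2. The 5 plasma cell markers (4 passed, mostly Xbp1) summed to 436 to 605 CPM in pMIR and 337 to 449.7 CPM in pMIR-Sox2. Jchain was at 9.22, 48.6 and 15.7 CPM in pMIR and at 1.10, 1.08 and 1.39 CPM in pMIR-Sox2. Prdm1 went the other way, at 9.85, 8.67 and 10.6 CPM in pMIR and at 27.2, 25.5 and 13.6 CPM in pMIR-Sox2. The 9 myeloid markers, of which 4 passed the filter and most of the sum was Adgre1, summed to 18.5 to 21.8 CPM in pMIR and 29.8 to 36.5 CPM in pMIR-Sox2, and the 6 stromal and endothelial markers (3 passed, mostly Pecam1) to 22.2 to 33.9 and 50.1 to 63.5 CPM. The 4 dendritic markers (1 passed, Zbtb46) summed to 18.6 to 25.6 and 4.98 to 7.82 CPM. Their part in the results below was not tested. In bulk RNA, fewer cells in mitosis and less of a transcript per cell cannot be told apart.

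Transcripts of mitosis genes are made mainly in late S phase and G2. Cyclin A and cyclin B activate the kinase CDK1, which drives entry into mitosis. The spindle then captures chromosomes at their kinetochores, the spindle checkpoint holds back the anaphase-promoting complex until all are attached, and the complex then destroys cyclin B and allows the sisters to part and the cell to divide. In quiescent cells the DREAM complex represses these genes, and in cycling cells the MuvB core with B-Myb and FoxM1 activates them, in both cases through a promoter element called the CHR (cell cycle genes homology region). Its common forms are TTTGAA and TTTAAA, and it often lies near CCAAT boxes, which bind the factor NF-Y.

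RefSeq promoter windows (GRCm38.p6, 250 bases before to 50 after each start) were searched for 29 of the 34 genes. Not among these 29 were Aurkb, Ccna2, Cdc25c, Tpx2 and Kif20a, which fell, so nothing is said here of their promoters. That these genes were left out is a limit of the search and does not show that they lack a window or a motif. Of these 29, 22 held TTTGAA on either strand and 9 held TTTAAA, so that 25 (86.2%) held a CHR form, against 27.6% of all 32851 windows. CCAAT was found on either strand in 22 of the 29 genes (75.9%), against 37.4% of all windows. CATTGT, a core that Sox proteins bind, was found on either strand in 1 of the 29 genes (3.45%), against 12.6% of all windows. Its variant CTTTGT was found in 4 (13.8%), against 18.7% of all windows. A match is only a match of letters. No motif searched contains another, but matches that lie side by side can share bases. The windows of Nusap1, Nuf2 and Mad2l1 held neither CHR form and no CCAAT. The stretches below, from 170 bases before to 30 after the start, are those of the 3 genes that rose, of Ccnb2, which carries the typical arrangement, and of Ccnf and Birc5, which fell when libraries were paired. Capitals mark both CHR forms and CCAAT on either strand.
Nusap1, chr2:119618128-119618327, plus strand: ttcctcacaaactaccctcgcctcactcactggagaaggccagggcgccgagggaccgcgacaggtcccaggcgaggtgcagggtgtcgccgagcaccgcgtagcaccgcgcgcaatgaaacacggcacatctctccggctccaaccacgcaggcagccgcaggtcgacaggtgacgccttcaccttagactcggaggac
Cenpe, chr3:135212393-135212592, plus strand: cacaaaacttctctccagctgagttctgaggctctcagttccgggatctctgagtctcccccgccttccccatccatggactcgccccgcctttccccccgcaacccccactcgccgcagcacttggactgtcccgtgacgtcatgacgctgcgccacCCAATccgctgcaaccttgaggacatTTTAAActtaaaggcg
Cenpf, chr1:189688057-189688256, minus strand: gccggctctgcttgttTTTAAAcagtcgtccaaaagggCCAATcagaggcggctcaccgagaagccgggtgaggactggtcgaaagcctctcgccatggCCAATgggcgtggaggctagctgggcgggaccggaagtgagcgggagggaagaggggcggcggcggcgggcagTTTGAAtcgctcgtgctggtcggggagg
Ccnb2, chr9:70421525-70421724, minus strand: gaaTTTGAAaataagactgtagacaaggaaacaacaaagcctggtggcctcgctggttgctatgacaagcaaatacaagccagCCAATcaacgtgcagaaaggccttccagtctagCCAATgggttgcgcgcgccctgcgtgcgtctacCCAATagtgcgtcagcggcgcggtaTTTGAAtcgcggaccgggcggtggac
Ccnf, chr17:24251380-24251579, minus strand: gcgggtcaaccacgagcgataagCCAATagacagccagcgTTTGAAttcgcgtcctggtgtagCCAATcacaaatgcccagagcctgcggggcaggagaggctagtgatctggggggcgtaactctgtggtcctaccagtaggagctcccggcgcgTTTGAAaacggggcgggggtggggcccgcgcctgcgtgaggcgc
Birc5, chr11:117849067-117849266, plus strand: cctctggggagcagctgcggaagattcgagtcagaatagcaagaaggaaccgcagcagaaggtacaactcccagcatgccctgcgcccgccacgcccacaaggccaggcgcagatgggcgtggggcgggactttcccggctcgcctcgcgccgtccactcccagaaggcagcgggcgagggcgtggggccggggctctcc
Ccnb2 shows 3 CCAAT boxes (−87, −54 and −21) followed by TTTGAA at position 5, with a further TTTGAA at −167, and Cenpf shows CCAAT boxes at −132 and −71 and TTTGAA at position 3, counting the start as 1. Cenpe has a single CCAAT at −12 and TTTAAA at 15. Nusap1, the gene that rose most, and Birc5 carry no capital in this stretch. In the full window Birc5 has TTTAAA at −220.

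Most of these genes differed little between pMIR-Sox2 and pMIR: 3 of 34 rose (Nusap1, Cenpe and Cenpf), 1 fell (Kif20a) and 30 did not pass the threshold of 0.05 on the adjusted p. The 4 genes called are 11.8% of the 34, whereas 43.2% of all 12899 genes tested were called (23.2% rose and 20.0% fell). The median log2 fold change of the 34 was −0.01, beside −0.02 over all genes tested, and no gene of the 34 changed by more than 2-fold, against 2098 genes of all tested. The 30 genes that did not pass had log2 fold changes from −0.34 to 0.33, and the 95% interval lay within 1.5-fold to either side in 26 of them. The groups' libraries did not overlap in 9 of the 34 (26.5%), 6 higher and 3 lower in pMIR-Sox2, against 56.5% of all genes tested. Without pMIR-Sox2 replicate 2, 7 of the 34 rose, in a fit where 19.1% of all genes tested rose. Without pMIR-Sox2 replicate 3, 5 fell, where 21.7% of all genes tested fell, and without pMIR replicate 1 Kif20a lost its call (adjusted p = 0.0558).

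Each pMIR library shares its replicate number with a pMIR-Sox2 library. Over all genes tested, libraries of 1 number deviated together in each of the 3 pairs, but over the 34 genes alone the correlations were −0.18, 0.37 and 0.03. With that number as a block in the model, 7 of the 34 rose and 5 fell (35.3%, against 52.7% of all genes tested, of which 27.0% rose and 25.7% fell). Ccnb2, Tpx2, Ect2 and Mad2l1 joined the genes that rose, and Ccna2, Aurkb, Birc5 and Ccnf joined Kif20a among those that fell. These 8 were smaller changes than those of the first 4: without the block their log2 fold changes ran from −0.34 to 0.33, and with it from −0.36 to 0.32. Of the 8, Tpx2 passed in each blocked fit that left out 1 pair, while Ccnb2 and Mad2l1 passed in none of the 3.

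**Figure D1:**
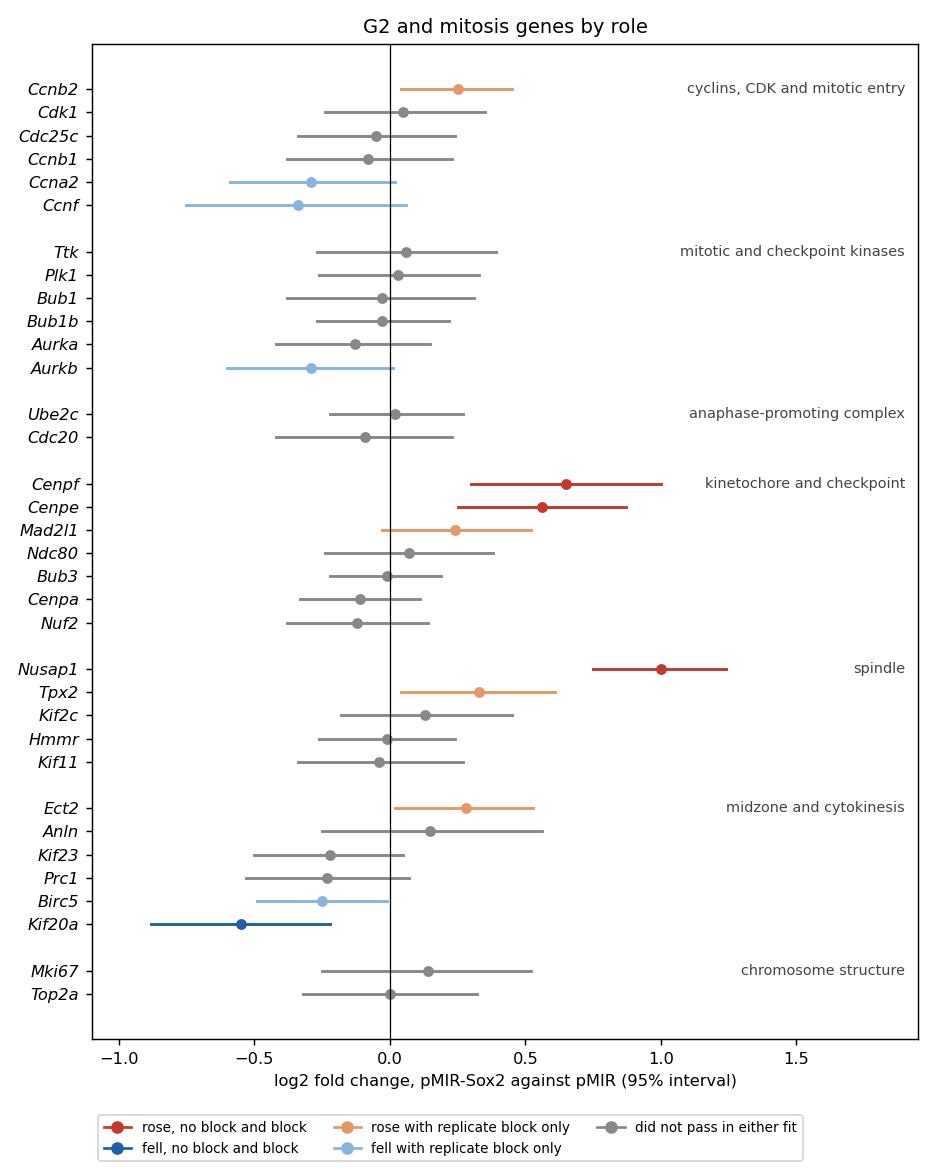
Log2 fold change (x axis) of each of the 34 genes in pMIR-Sox2 against pMIR, grouped by role, with points for the estimate without the block and lines for its 95% interval. Dark red and blue mark genes that rose or fell in both fits, and pale colours those that did so with the block only. Nusap1 stands at 1.00, Cenpf at 0.65, Cenpe at 0.56 and Kif20a at −0.55, and the other 30 lie between −0.34 and 0.33.

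Among the cyclins, their kinase and the phosphatase that switches it on, 0 of 6 genes passed without the block in edgeR. At an unadjusted p under 0.05 there was 1, by DESeq2 1 (Ccnb2) and by limma-voom 0. The roles were assigned after the values were seen and hold few genes each. In the same edgeR fit 43.2% of all genes tested passed. Ccnb1, which encodes the main cyclin of mitotic entry, was read at 129, 103 and 122 CPM in pMIR and at 122, 92.4 and 120.5 CPM in pMIR-Sox2. In both groups the library of replicate 2 was the lowest and the ranges overlapped (−0.08 ± 0.13, log2 fold change ± SE, adjusted p = 0.660). Cdk1, the kinase itself, was read at 125, 108 and 122 CPM and at 131, 101 and 137 CPM, again with replicate 2 lowest (0.05 ± 0.13, adjusted p = 0.760). Cdc25c, the phosphatase, was at 20.6 ± 1.03 CPM (SD, n = 3) in pMIR and 20.0 ± 2.57 CPM in pMIR-Sox2.

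Ccnb2, the other B-type cyclin of mitosis, was read at 105, 102 and 105 CPM in pMIR and at 127, 116 and 128 CPM in pMIR-Sox2. Every pMIR-Sox2 library was above every pMIR library, and the estimate of 0.25 ± 0.09 missed the threshold without the block (adjusted p = 0.0516) and passed with it (adjusted p = 0.0341). In the blocked fits without 1 pair its adjusted p ran from 0.0668 to 0.0887. Whether Ccnb1 and Ccnb2 differ in their response was not tested. Ccna2, the cyclin that acts from S phase to early mitosis, was read at 275, 243 and 279.8 CPM in pMIR and at 222, 179.9 and 252 CPM in pMIR-Sox2. It was lower in each of the 3 pairs while the groups overlapped (−0.29, adjusted p = 0.114; with the block −0.30, adjusted p = 0.0190). Ccnf, which encodes an F-box protein that marks targets for destruction in G2, was read at 68.8, 57.4 and 75.5 CPM and at 65.1, 39.0 and 54.6 CPM. The pairs differed by −0.08, −0.56 and −0.47 on the log2 scale, and the adjusted p was 0.154 without and 0.00922 with the block. In the blocked fit without replicate 2, both Ccna2 (0.218) and Ccnf (0.115) missed the threshold on the adjusted p, and Ccna2 did so without replicate 1 too (0.0899). Ccna2 shares 510 exon bases with Exosc9 on the other strand in GENCODE M21. The strand setting of the counting is not known, and Exosc9 was at 66.0 ± 5.19 and 55.4 ± 1.20 CPM.

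Of the 6 mitotic and checkpoint kinases, 0 passed without the block in edgeR, where 0 had an unadjusted p under 0.05, and 0 passed by DESeq2 or limma-voom. Plk1, which acts at entry, spindle and cytokinesis, was read at 123, 106 and 122 CPM in pMIR and at 135, 99.0 and 127 CPM in pMIR-Sox2. The estimate was 0.03 with a 95% interval from −0.26 to 0.33. Aurka, the kinase of spindle poles, was at 75.9 ± 8.40 and 69.3 ± 8.45 CPM (n = 3 each). Bub1, Bub1b and Ttk, kinases of the spindle checkpoint, had estimates of −0.03, −0.03 and 0.06 and overlapping libraries. Aurkb, the kinase of the chromosomal passenger complex, was read at 131, 121 and 140.2 CPM in pMIR and at 110.2, 86.3 and 123 CPM in pMIR-Sox2. It was lower in each of the 3 pairs, with only pMIR-Sox2 replicate 3 reaching the pMIR range (−0.29 ± 0.14, adjusted p = 0.110; with the block −0.31, adjusted p = 0.0146). With the block and without replicate 1 or 2 its adjusted p was 0.0519 and 0.204.

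Neither of the 2 genes of the anaphase-promoting complex passed in either fit. Cdc20, which brings the complex to cyclin B, was at 148 ± 20.3 and 139 ± 21.3 CPM, and Ube2c, its ubiquitin-conjugating enzyme, at 155 ± 13.4 and 157 ± 12.8 CPM (n = 3 each). The 95% interval of the log2 fold change was −0.42 to 0.23 for Cdc20 and −0.22 to 0.27 for Ube2c.

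Of 7 genes of the kinetochore and its checkpoint, 2 rose and 5 did not pass, where 23.2% of all genes tested rose. The checkpoint kinase genes Bub1, Bub1b and Ttk, which did not pass, were placed with the kinases. Both risers encode long proteins of the outer, fibrous corona of the kinetochore. Cenpe, a kinesin that carries chromosomes to the spindle equator, was read at 101, 132 and 131 CPM in pMIR and at 207, 159 and 170.5 CPM in pMIR-Sox2. All pMIR-Sox2 libraries lay above all pMIR libraries, by 47.4% in the fit (0.56 ± 0.14, adjusted p = 0.0104). Cenpf was read at 64.6, 86.2 and 85.9 CPM and at 149, 112 and 110.1 CPM, again without overlap (0.65 ± 0.16, adjusted p = 0.00866). For both, pMIR replicate 1 was the lowest and pMIR-Sox2 replicate 1 the highest of their groups. The differences by pair were 1.02, 0.28 and 0.38 for Cenpe and 1.20, 0.38 and 0.36 for Cenpf on the log2 scale, and with the block but without replicate 1 the estimates were 0.35 for Cenpe (adjusted p = 0.0268) and 0.39 for Cenpf (adjusted p = 0.0148).

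Cenpf, with 15.4 kb of exon, is the longest of the 34 genes. Across the 34 genes, the rank correlation of exon length with the difference was 0.35 in pair 1, −0.03 in pair 2 and 0.12 in pair 3. Over 12432 genes tested with a known length it was 0.25, 0.13 and 0.09. Genes are not independent replicates, these values share the same libraries, and the part of length in the rise of Cenpe and Cenpf was not tested.

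Mad2l1, the checkpoint protein that inhibits Cdc20, was read at 98.1, 87.6 and 95.4 CPM in pMIR and at 119.7, 92.6 and 121 CPM in pMIR-Sox2. It was higher in each of the 3 pairs but overlapped in replicate 2 (0.24 ± 0.12, adjusted p = 0.134; with the block adjusted p = 0.0490). Ndc80 and Nuf2, partners in the complex that binds microtubules, were at 63.1 ± 2.24 and 66.3 ± 12.9 CPM and at 66.5 ± 3.16 and 61.2 ± 7.64 CPM. Cenpa, the histone that marks centromeres, had an estimate of −0.11 and the checkpoint protein gene Bub3 of −0.01, the latter with an interval from −0.22 to 0.19.

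Among the 34 genes the largest change was in Nusap1, which encodes a microtubule-bundling protein of the spindle around chromosomes. It was read at 142, 138 and 161 CPM in pMIR and at 297, 311 and 271 CPM in pMIR-Sox2. The lowest pMIR-Sox2 library was well above the highest pMIR library, a rise of 99.5% (1.00 ± 0.11, adjusted p = 0.000154). The estimate ran from 0.95 to 1.06 when any 1 library was left out and was 1.00 with the block. Nusap1 shares 172 of its 4059 exon bases with Oip5 on the other strand, and Oip5 was at 25.4 ± 3.55 CPM in pMIR and 31.5 ± 1.28 CPM in pMIR-Sox2. Tpx2, which activates Aurora A on the spindle, was read at 224, 192 and 220.0 CPM in pMIR and at 290.3, 224 and 283 CPM in pMIR-Sox2. The lowest pMIR-Sox2 library sat at the level of the highest pMIR library, and Tpx2 passed with the block (0.32, adjusted p = 0.0105) and not without it (0.33, adjusted p = 0.0626). The motor Kif11, which pushes spindle poles apart, the microtubule depolymerase Kif2c and the spindle protein gene Hmmr had estimates of −0.04, 0.13 and −0.01.

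**Figure D2:**
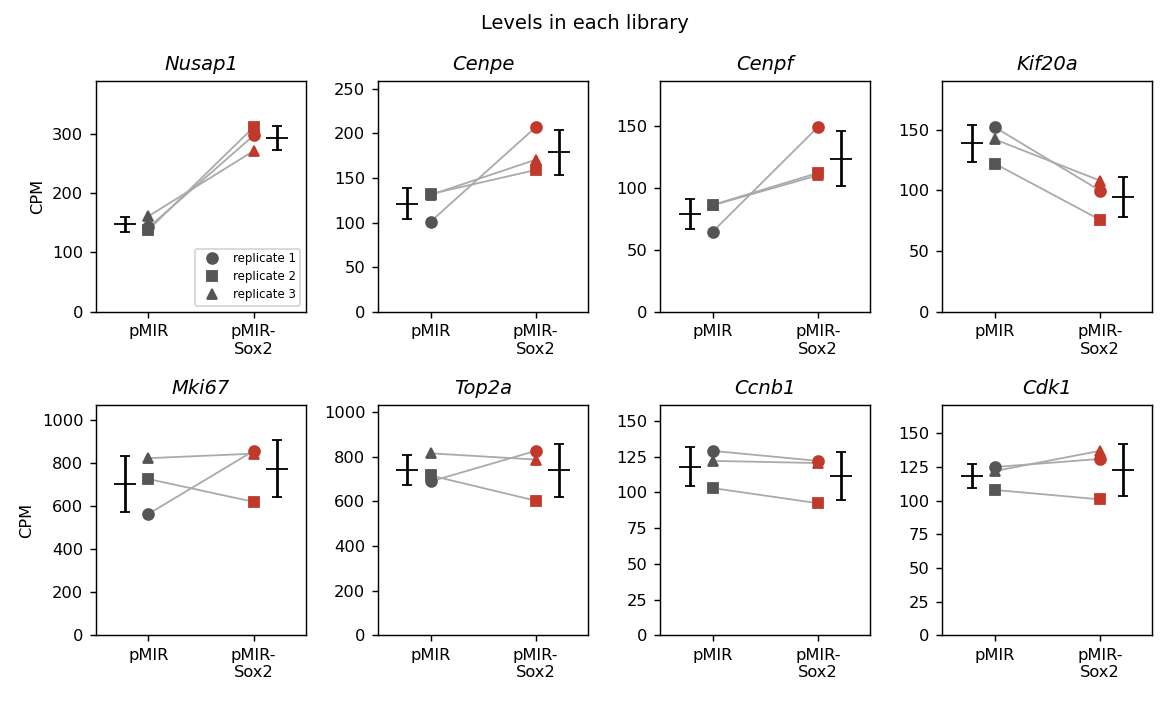
CPM (y axis, from 0) of 8 genes in each library, with grey points for pMIR, red points for pMIR-Sox2, a symbol for each replicate number, lines joining libraries of the same replicate number and bars for mean ± SD (n = 3). The groups are apart for Nusap1, Cenpe, Cenpf and Kif20a and overlap for Mki67, Top2a, Ccnb1 and Cdk1.

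Of 6 genes of the spindle midzone and of cytokinesis, 1 fell and 5 did not pass, where 20.0% of all genes tested fell. With the block 1 rose and 2 fell, where 27.0% of all genes tested rose and 25.7% fell. Kif20a, the kinesin that moves the passenger complex to the midzone, was read at 152, 122 and 142 CPM in pMIR and at 99.8, 75.8 and 108 CPM in pMIR-Sox2. No library of one group reached the other, and Kif20a fell by 31.7% (log2 fold change −0.55 ± 0.14, adjusted p = 0.0134; with the block −0.56, adjusted p = 0.000135). Without pMIR replicate 1 the estimate was −0.49 and the adjusted p 0.0558. Kif20a shares 1271 of its 4338 exon bases with Cdc23 on the other strand. Cdc23, a subunit of the anaphase-promoting complex, was at 73.7 ± 7.10 CPM in pMIR and 60.9 ± 5.18 CPM in pMIR-Sox2 (−0.28, adjusted p = 0.0741), and the part of shared reads in the fall of Kif20a was not tested.

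Birc5, which encodes the passenger protein survivin, was read at 136, 127 and 139 CPM in pMIR and at 116, 99.2 and 123 CPM in pMIR-Sox2. The groups did not overlap, and Birc5 missed the threshold without the block (−0.25 ± 0.11, adjusted p = 0.0893) and passed with it (adjusted p = 0.0326). Its adjusted p was 0.0966 and 0.243 in the blocked fits without replicate 1 and 2. Prc1, the microtubule crosslinker of the midzone, was at 110.1, 104 and 115 CPM and at 103, 75.2 and 102 CPM, without overlap, and Kif23, a subunit of centralspindlin, at 108 ± 4.73 and 92.3 ± 14.3 CPM. Both were lower in each of the 3 pairs and passed in neither fit, with adjusted p of 0.0513 (Prc1) and 0.0581 (Kif23) with the block.

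Ect2, the exchange factor that activates RhoA at the division site, was read at 61.0, 60.1 and 63.9 CPM in pMIR and at 84.0, 65.0 and 74.8 CPM in pMIR-Sox2. The groups did not overlap (0.28 ± 0.11, adjusted p = 0.0757; with the block 0.27, adjusted p = 0.0320). In the blocked fit without replicate 1 its adjusted p was 0.197. Anln, the scaffold of the contractile ring, was read at 25.4, 27.1 and 37.5 CPM in pMIR and at 37.9, 26.7 and 35.5 CPM in pMIR-Sox2, with overlapping groups.

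The 2 genes of chromosome structure did not pass. Mki67, which encodes the proliferation marker Ki-67 that coats mitotic chromosomes, was read at 565, 727 and 824 CPM in pMIR and at 858, 621 and 845 CPM in pMIR-Sox2. The spread within each group was as wide as the difference (0.14 ± 0.17, 95% interval −0.25 to 0.52). The pairs differed by 0.60, −0.23 and 0.04 on the log2 scale, so that replicate 1 and replicate 2 went opposite ways. Top2a, the topoisomerase that disentangles sister chromatids, was read at 689, 716 and 815 CPM and at 826, 603 and 787 CPM, with an interval from −0.32 to 0.32.

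Per length, the transcripts spanned a wide range within the group. In pMIR, Top2a (82.1 ± 7.35 CPM per kb of exon), Cdc20 (79.1 ± 10.9), Mki67 (70.1 ± 13.0), Ccnb2 (68.0 ± 1.18) and Ccna2 (65.1 ± 4.86) were the 5 highest. Neighbours in that order differed by less than the larger of their SDs. Anln (3.31 ± 0.722), Cdc25c (4.20 ± 0.209) and Cenpf (5.11 ± 0.804) were the 3 lowest, and each step between neighbours there was slightly larger than the larger SD. In pMIR-Sox2 the level per kb of Nusap1 was 72.2 ± 4.97, up from 36.2 ± 3.04, and its rank among the 34 moved from 12 to 5. Kif20a moved from rank 13 (31.9 ± 3.45) to rank 20 (21.8 ± 3.87). Exon lengths are unions of all annotated exons in GENCODE M21, so genes with long, rarely used exons are set too low.

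**Figure D3:**
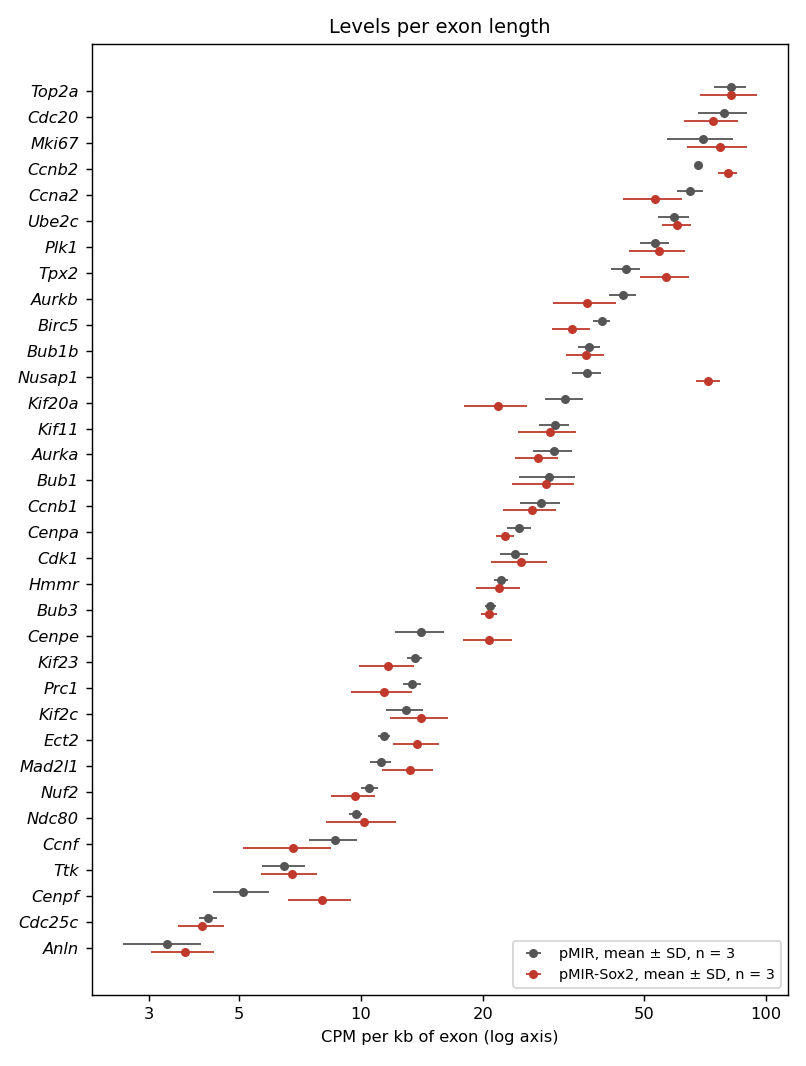
Level per kb of exon (x axis, log scale) of the 34 genes in pMIR (grey) and pMIR-Sox2 (red), mean ± SD over 3 libraries, ordered by the level in pMIR. Nusap1, Cenpe and Cenpf lie to the right in pMIR-Sox2 beyond both SDs and Kif20a to the left. So do Ccnb2 and Ect2 to the right and Birc5 to the left, while for most genes the SDs overlap.

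Most of the 34 genes lay on the same side of their group mean in several libraries. In pMIR-Sox2 replicate 2, 33 of the 34 were below their group mean and 32 were the lowest of the 3 libraries, with a median deviation of −0.24 on the log2 scale. The exceptions to the lowest place were Nusap1 and Cenpf. In pMIR-Sox2 replicates 1 and 3, 31 of the 34 were above the group mean in each, with medians of 0.09 and 0.13. In pMIR replicates 1 to 3, 20, 4 and 32 were above it. In pMIR the same replicate number was also low: 22 of the 34 were lowest in pMIR replicate 2 (median −0.08), against 10 in replicate 1 and 2 in replicate 3. Of all 12899 genes tested, 4463 were lowest in pMIR-Sox2 replicate 2 and 4860 in pMIR replicate 2.

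By pair, 19 of the 34 genes were higher in pMIR-Sox2 in replicate 1, 8 in replicate 2 and 20 in replicate 3, with medians of 0.02, −0.15 and 0.02. Of all 12899 genes tested, 6342, 6205 and 6412 were higher, with medians of −0.01, −0.03 and 0.00. Across all 3 pairs, 8 of the 34 genes were higher each time, 11 lower each time and 15 mixed, a tally not made over all genes tested. Sox2 itself was at 786 CPM in pMIR-Sox2 replicate 2, between the other 2 libraries. The standard error was smaller with the block than without it in 31 of the 34 genes.

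**Figure D4:**
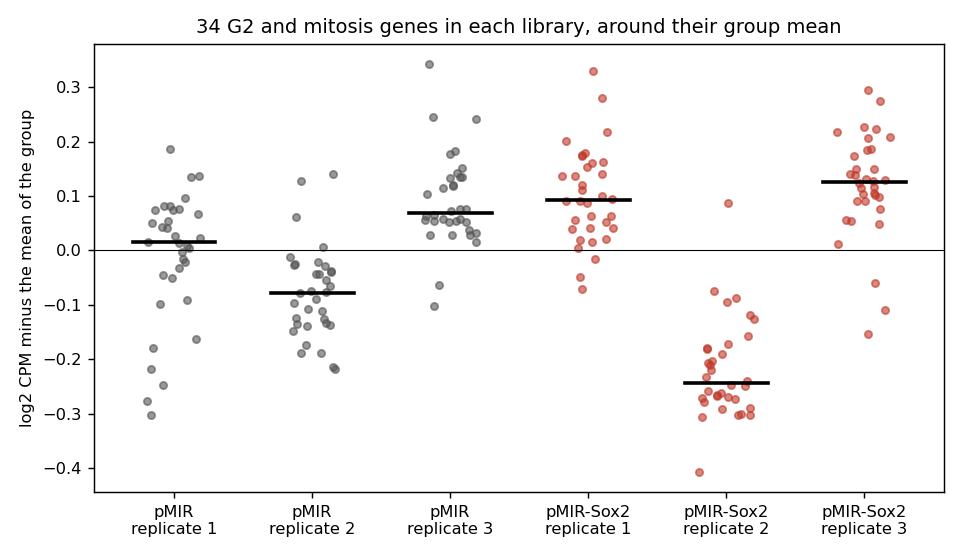
Log2 CPM minus the mean of its group (y axis) for each of the 34 genes (points) in each library (x axis), with the median as a bar. In pMIR-Sox2 replicate 2 all points but 1 lie below 0, with a median of −0.24, and the median of pMIR replicate 2 is −0.08.

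Genes of the same pathways outside the 34 were read from 6 further lists, in the same fit, in which 23.2% of all genes tested rose and 20.0% fell (27.0% and 25.7% with the block). Without pMIR replicates 1, 2 and 3 in turn, 17.9, 20.9 and 18.3% of all genes tested rose and 13.5, 17.9 and 14.0% fell. Without pMIR-Sox2 replicates 1, 2 and 3 in turn, 18.9, 19.1 and 25.0% rose and 14.3, 14.7 and 21.7% fell. With library totals only, 26.5% rose and 16.0% fell, and with no filter 15.3% and 11.1%. Of 21 regulators of mitotic entry and exit, 1 rose, 4 fell and 16 did not pass, with a median of −0.20. Cdc25b, the phosphatase that starts CDK1 activation in G2, fell from 167 ± 16.5 to 68.3 ± 3.80 CPM (−1.29 ± 0.11, adjusted p = 4.48e-05), a larger change than that of any of the 34. Pkmyt1 and Espl1, an inhibitory kinase of CDK1 and the protease separase, fell by 0.57 and 0.49 on the log2 scale. Ensa, an inhibitor of the phosphatase PP2A in mitosis, also fell (−0.38). The list's falls numbered 9 with the block. They numbered 2 when pMIR replicate 1, or either of pMIR-Sox2 replicates 1 and 2, was left out, 1 when pMIR replicate 3 was, 7 when pMIR-Sox2 replicate 3 was, and 2 when only library totals were used for scaling. Its 1 rise, Ppp2r5a, lost its call when pMIR replicate 1 or 3, or pMIR-Sox2 replicate 1 or 2, was left out. Pkmyt1 lost its call without pMIR replicate 3 (0.0583) or pMIR-Sox2 replicate 1 (0.0609), and Ensa and Espl1 each did so without pMIR replicate 1 (0.0809 and 0.0980), pMIR replicate 3 (0.0801 and 0.0988) or pMIR-Sox2 replicate 2 (0.0693 and 0.0621), Ensa also without pMIR-Sox2 replicate 1 (0.0900).

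The transcription factors of these genes were called at about the rate of all genes, with 3 of 15 rising, 4 falling and 8 not passing (46.7%). Foxm1, the activator of the G2 programme, was read at 89.9, 85.8 and 95.6 CPM in pMIR and at 108, 87.4 and 109 CPM in pMIR-Sox2 and did not pass (0.17, adjusted p = 0.262). Mybl2, which encodes B-Myb, fell, from 126, 78.4 and 118 CPM to 69.5, 44.8 and 75.8 CPM (−0.76, adjusted p = 0.0225). Mybl2 lost its call when pMIR replicate 1 (0.0808) or 3 (0.0698) or pMIR-Sox2 replicate 1 (0.0517) or 2 (0.0520) was left out, and with no filter on low counts (0.129). E2f4, a repressive E2F of the DREAM complex, fell from 166 ± 9.56 to 108 ± 13.6 CPM (−0.62). E2f5, the other E2F gene of the list, went the other way, from 10.3 ± 1.53 to 16.0 ± 3.03 CPM (0.63, adjusted p = 0.0188). Tfdp1 fell from 248 ± 23.5 to 169 ± 35.0 CPM (−0.55, adjusted p = 0.0188). The NF-Y subunits, which bind CCAAT, went apart: Nfya fell from 118 ± 8.66 to 60.3 ± 18.1 CPM (−0.97, adjusted p = 0.00358) and Nfyb rose from 70.1 ± 3.49 to 88.8 ± 3.42 CPM (0.34, adjusted p = 0.0157). Rbbp4, a MuvB subunit, rose by 0.39. Without pMIR replicate 2 or 3 the list's rises numbered 0 in edgeR, with Nfyb at 0.0543 and 0.0803 and Rbbp4 at 0.0550 and 0.0686, and without pMIR replicate 1 or 3 its falls numbered 2.

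Of 37 other genes of kinetochore, centromere and checkpoint, 2 rose, 3 fell and 32 did not pass (median −0.05). Sgo2a, which protects cohesion at centromeres, rose from 30.0 ± 6.35 to 67.7 ± 7.43 CPM (1.17), and Ska2, of the complex that holds kinetochores to microtubules, rose by 0.64. Trip13, which recycles Mad2, and Cenpm fell by 0.63 and 0.64 on the log2 scale. With the block 4 rose and 9 fell, and 5 fell by DESeq2, by limma-voom and with no filter. The list had no call of a fall left when pMIR replicate 1 was left out (Trip13 at 0.0605, Cenpm at 0.0581) or when pMIR replicate 3 was (0.0513 and 0.0566). It had 1 when pMIR-Sox2 replicate 1 was left out (Cenpm at 0.0702) and 9 when pMIR-Sox2 replicate 3 was.

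Of 32 other spindle, motor and cytokinesis genes, 5 rose, 2 fell and 25 did not pass (median −0.03). Depdc1a rose from 12.4 ± 1.12 to 39.0 ± 4.42 CPM (1.65 ± 0.13, adjusted p = 3.72e-05). The kinesin gene Kif18a, whose product dampens chromosome movement, rose from 28.7 ± 3.57 to 55.0 ± 2.63 CPM (0.94), and Numa1, of the spindle poles, by 0.63. Psrc1 fell by 0.61 on the log2 scale. The falls numbered 4 with the block and 1 when any 1 pMIR library or pMIR-Sox2 replicate 2 was left out or only library totals were used.

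Of 17 genes of the anaphase-promoting complex and its enzymes, 2 rose, 1 fell and 14 did not pass. Ube2d1, a ubiquitin-conjugating enzyme, rose from 28.7 ± 2.24 to 63.3 ± 16.5 CPM (1.14), Anapc4 rose by 0.35, and Anapc5 fell from 592 ± 10.7 to 415 ± 37.6 CPM (−0.51). Anapc4 lost its call without pMIR replicate 3 (0.0588), which left 1 rise. The falls numbered 4 with the block and 2 without pMIR replicate 2, and 4 rose when only library totals were used.

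Of 21 genes of condensin and cohesin, the ring complexes that shape and hold chromosomes, 6 rose, 0 fell and 15 did not pass in edgeR. At an unadjusted p under 0.05, 0 were lower, and 0 fell by DESeq2 or limma-voom. The 6 (28.6%, against 23.2% of all genes tested that rose) were Stag2, which encodes a cohesin subunit, from 173 ± 18.6 to 242 ± 2.69 CPM (0.48), Stag1 (0.49), Nipbl (0.55), Esco1 (0.51), Smc3 (0.46) and Pds5b (0.41). Of other cohesin genes, Rad21 (0.23), Smc1a (−0.01), Pds5a (−0.08), Mau2 (0.17), Wapl (−0.15), Esco2 (−0.28) and Cdca5 (−0.41) did not pass. With the block 3 fell, as many as when pMIR-Sox2 replicate 3 was left out.

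Genes of DNA replication and S phase, the phase before G2, formed a separate list. Among 44 such genes 2 rose, 10 fell and 32 missed the threshold, with a median log2 fold change of −0.28 beside −0.01 for the 34 G2 and mitosis genes and −0.02 for all genes tested. Rpa2, of the protein that coats single-stranded DNA, fell from 103 ± 10.8 to 60.7 ± 14.3 CPM (−0.76), and Pola1, of the polymerase that starts new strands, rose from 82.4 ± 7.80 to 118 ± 8.81 CPM (0.52). With the block 28 of 44 fell (30 of 44, or 68.2%, were called), beside 5 of the 34 G2 and mitosis genes (35.3% called) and 25.7% of all genes tested that fell (52.7% called). By pair the S phase medians were −0.36, −0.48 and −0.11, and those of the G2 and mitosis genes 0.02, −0.15 and 0.02. The S phase falls numbered 2 when pMIR replicate 1 was left out, where 13.5% of all genes tested fell. They numbered 3 when any of pMIR replicate 3 and pMIR-Sox2 replicates 1 and 2 was (14.0, 14.3 and 14.7% of all genes tested). Without pMIR-Sox2 replicate 3 there were 26 (21.7% of all genes tested). The falls numbered 14 by DESeq2 or limma-voom (20.3 and 20.2% of all genes tested) and 5 when only library totals were used (16.0%). As with the mitosis genes, pMIR-Sox2 replicate 2 was the lowest of its group in most S phase genes (40 of 44), and pMIR replicate 2 was the lowest of its own in 40. The difference between the lists was not tested.

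**Figure D5:**
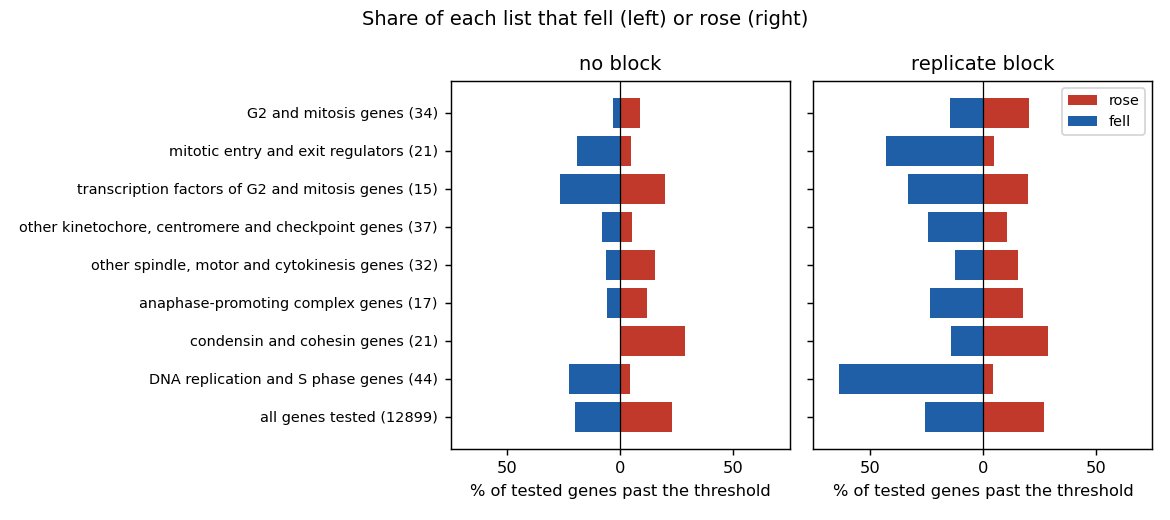
Share of each list (x axis, % of tested genes, number tested in brackets) that fell (blue, left) or rose (red, right) in pMIR-Sox2, without and with the replicate block. The 34 G2 and mitosis genes have the smallest share called without the block (11.8%), close to the other kinetochore list (13.5%). With the block, the other spindle list (28.1%) and the other kinetochore list (35.1%) have smaller shares than the 34 (35.3%). The S phase genes have the longest bar of falls with the block.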

How the data were processed

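RNA sequencing of 3 pMIR and 3 pMIR-Sox2 libraries was read from a table of raw counts per Ensembl gene deposited by the authors, 1 column per library. The submitters' processing notes name HTSeq 0.6.1p1, TopHat2 2.0.11 with Bowtie2 2.2.2, and Trimmomatic 0.32, besides SAMtools 0.1.19, with the build mm9 and no roles. For the strand setting and the annotation, nothing was given in the sources used here. Genes held 51.9 to 53.2% of a library's total, and the lines that name no gene were left out.

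The test of counts was edgeR 4.0.16 under R 4.3.3 (filterByExpr, TMM, robust quasi-likelihood fit, Benjamini-Hochberg adjustment over 12899 genes, threshold 0.05). Each adjusted p is from this fit, without the block, unless the block, a left-out library, another setting or another tool is named. CPM use the TMM-scaled library size, pair differences a prior count of 2, and SE is the estimate over the square root of F. Alternatives used the replicate block, other scaling, no filter, limma-voom (limma 3.58.1), DESeq2 1.42.0 and left-out libraries.

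Groups and replicate numbers come from titles. The names of the count columns carry 8, 9 and 12 for replicates 1, 2 and 3 in both groups. Same-numbered libraries deviated together from their group means over all genes tested (correlations 0.24, 0.36 and 0.19, other pairs −0.24 to 0.03). Over the 34 genes alone the values were −0.18, 0.37 and 0.03. By the values over all genes, the numbers were taken to pair the samples in the blocked fits and the pair differences. The main fit, which gave the 3 rises and 1 fall, did not use the pairing. The spread behind each p-value is that between samples and may be technical. The 34 genes and all lists were chosen with earlier results of these data known, and the roles after their values were seen. All 34 genes were named. Values in every library were to be given for genes past the threshold in either fit, for Mki67, Top2a, Ccnb1, Cdk1, Plk1 and Aurkb and for the highest and lowest, and from each other list the up to 4 called genes (2 for S phase) of smallest adjusted p. Prc1, Foxm1, Mybl2, E2f5, Tfdp1, Ppp2r5a and the cohesin genes past the first 4 were added after their values were seen. So was the blocked fit without 1 pair. Ska2 and Ska3 were matched by gene ID. GENCODE M21 (GRCm38, not mm9) gave exon lengths and overlaps.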

Additional observations from a re-analysis of the deposited data

How the results depend on the processing

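Leaving out 1 library gave 3 to 7 rises and 0 to 5 falls among the 34 genes, against 3 and 1, while 17.9 to 25.0% of all genes tested rose and 13.5 to 21.7% fell in those fits. The replicate block gave 7 rises and 5 falls, where 27.0% of all genes tested rose and 25.7% fell. Library totals only gave 6 rises (26.5% of all genes tested rose) and the DESeq2 Wald test 5 (23.4%). The blocked fits without 1 pair, a choice made after the data were seen, gave 4 to 5 rises and 1 to 6 falls. In those fits 21.2 to 28.5% of all genes tested rose and 17.8 to 25.3% fell. Of 510 values of single genes of the 34 under these alternatives, 475 kept their side of the threshold, 34 newly passed and 1 (Kif20a without pMIR replicate 1) no longer passed, and 0 called values changed sign. The cause was not tested. Signs of values that did not pass changed in up to 9 genes, without pMIR-Sox2 replicate 2, and in 7 with library totals only. That scaling moved the median of all genes by 0.08 and raised the share of rises among all calls from 53.7 to 62.4%. Nusap1, Cenpe and Cenpf passed under each of the 15 alternatives. Over all genes, rises numbered 2363 to 3744 and falls 1783 to 3316. Counts of the 34 genes ran from 315 to 18686 per library, and SE from 0.09 to 0.18. The block changed the calls named above and no other call of the 34 genes.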
